A study of Mus musculus with 12 samples.

Results

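The genes described here are 36 mouse genes of the ATF4 response and of amino acid supply, taken by symbol from a table of 55335 genes in which all 36 were present. They comprise 10 transcription factors and feedback genes, 6 growth-control, secreted or receptor outputs, 11 enzymes of amino acid and one-carbon synthesis, and 9 amino acid transporters. All 36 passed the filter on low counts, among 14935 genes tested. Each was followed in 12 RNA-seq libraries, 3 per group: PYMT-R221A cells given 40 µM KCC-07, control cells, cells transfected with siRNA against Mbd2 (siMBD2) and cells transfected with scramble siRNA. PYMT-R221A is a mouse mammary tumour line, and all 4 groups share it. KCC-07 is described in the title of the series as an inhibitor of the pathway of MBD2, a reader of methylated DNA. No source used here gives a vehicle, the length of treatment or the number of clones behind the line.

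ATF4 is a transcription factor whose messenger is held back by upstream reading frames and is translated when the initiation factor eIF2 is phosphorylated, as happens when amino acids run short, when the endoplasmic reticulum is stressed or when haem is lacking. This is the integrated stress response. ATF4 and its partners of the C/EBP family bind a composite element in the genes of asparagine, serine, glycine and proline synthesis and of amino acid import, and they also induce CHOP (Ddit3), TRIB3 and CHAC1, which feed back on the response or favour cell death. Because ATF4 is controlled largely by translation, the level of its messenger is only a partial readout of its activity. The cystine importer gene Slc7a11 and a few others are also known targets of NRF2, the factor of the oxidative stress response.

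Deposited counts summed to 25.8 to 29.2 M in the KCC-07 libraries, against 29.8 to 34.0 M in the control libraries. They summed to 29.7 to 31.7 M in the siMBD2 libraries, against 26.1 to 32.9 M in the scramble libraries. The targeted gene, Mbd2, fell in the siMBD2 libraries, by 1.20 on the log2 scale (adjusted p = 0.000197), with 30.6 to 35.7 CPM (counts scaled to library size) in siMBD2 libraries and 72.5 to 83.2 CPM in scramble libraries. In every group replicate 3 had the largest mitochondrial share of counts, 3.90% with KCC-07 and 2.81% in control cells, where the other libraries of those groups had at most 1.82%. The 7 epithelial markers were detected in every group and summed to 1425 to 1486 CPM per KCC-07 library and 1144 to 1315 CPM per control library. They summed to 1298 to 1465 CPM per siMBD2 library and 1394 to 1481 CPM per scramble library. All of them but Krt8, which overlapped, were higher in every KCC-07 library than in every control library. Mesenchymal markers summed to 2252 to 2623 CPM per KCC-07 library and 2216 to 2633 CPM per control library. They summed to 2617 to 2980 CPM per siMBD2 library and 3284 to 3792 CPM per scramble library. Over all libraries Fn1 (1030 to 2620 CPM) and Vim (337 to 1028 CPM) were the highest of these. Dcn reached at most 0.145 CPM and Col1a2 at most 0.546 CPM. Pdgfra had 69.6 to 131 CPM in KCC-07 libraries, against 144 to 160 CPM in control libraries. Pdgfrb had 2.42 to 10.4 CPM, against 15.9 to 17.1 CPM. Col1a2 was higher in every KCC-07 library than in every control library, and the other mesenchymal markers overlapped. Basal or myoepithelial markers summed to 342 to 689 CPM per KCC-07 library and 548 to 660 CPM per control library. They summed to 554 to 575 CPM per siMBD2 library and 546 to 616 CPM per scramble library. Trp63 was lower in every KCC-07 library (17.7 to 43.7 CPM) than in every control library (55.4 to 56.6 CPM). Krt17 was higher (84.7 to 140 CPM against 69.5 to 83.6 CPM), and the other basal or myoepithelial markers overlapped. Leukocyte markers summed to at most 7.99 CPM, endothelial markers to at most 6.58 CPM and adipocyte markers to at most 0.366 CPM in any library.

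All 36 genes had a positive fitted log2 fold change in KCC-07 against control cells, with a median of 0.61, while over all genes tested 51.8% were positive and the median was 0.02. For 9 of the 36, Ddit3, Vldlr, Phgdh, Shmt2, Pycr1, Cth, Cbs, Slc7a5 and Slc7a3, the value was below 0 when 1 of the 6 libraries was left out. Past an adjusted p of 0.05, corrected over all 14935 genes, 6 genes rose and none fell; the same call took 3.58% of all genes as higher and 2.08% as lower. The risers were the cystine, cationic and neutral amino acid transporters Slc7a11, Slc7a1 and Slc1a4, the growth regulator Ddit4, the secreted glycoprotein Stc2 and the stress cytokine Gdf15. With the replicate number as a block, 14 genes rose, where 12.8% of all genes did. Without replicate 3 in any group, 16 rose, where 15.1% of all genes did, the median over the 36 genes was 0.28 and 29 were positive. Of the 6 risers 5 were among those 16, and Gdf15 was not. In a fit of the 6 libraries alone none of the 36 passed, and 1 of all genes did. Every KCC-07 library lay above every control library for 17 of the 36 genes, against 12.3% of all genes. Fewer cells of a kind and less RNA per cell cannot be told apart in such bulk libraries.

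**Figure D1:**
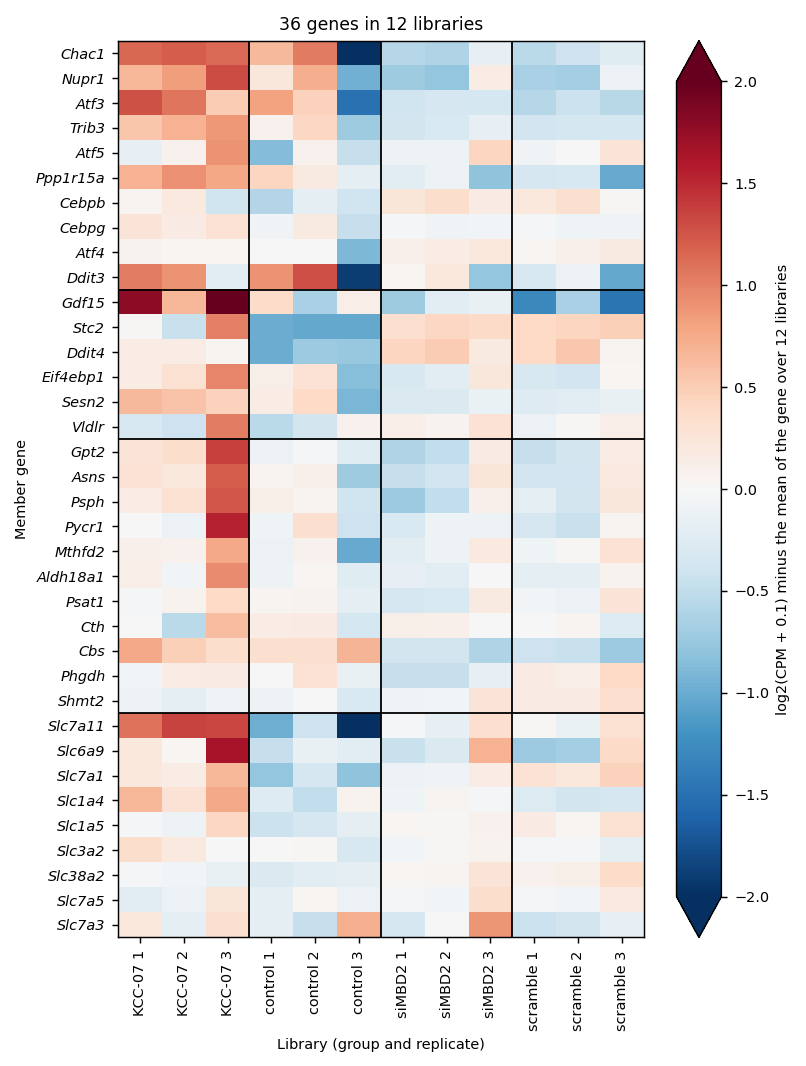
Rows are the 36 genes grouped by role and columns the 12 libraries; colour gives log2(CPM + 0.1) minus the mean of that gene over all 12 libraries, with red above and blue below it. Slc7a11 was highest in the 3 KCC-07 libraries, and control replicate 3 was the lowest control library for 24 of the 36 genes.

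Promoters were read in the RefSeq windows of GRCm38.p6, which reach from 250 bases before to 50 bases after each RefSeq start. That start can differ from the GENCODE one used for gene positions: the 50 bases after it lay in a GENCODE transcript of the gene for 27 of 38 windows, and the printed Trib3 stretch lies wholly upstream of the GENCODE start. Windows existed for 31 of the 36 genes, 38 windows in all. A core of the C/EBP-ATF element, TGATGNAA on either strand, stood in 9 of the 38 windows (23.7%), where 3.97% of all 32851 windows held it. A core of the antioxidant response element, TGACNNNGC, stood in 11 windows (28.9%), where 12.4% of all windows held it. Each match is only a description of letters. The 5 windows printed here are those holding the first core with the smallest adjusted p in KCC-07 against control cells; each runs from 130 bases before to 25 bases after the start, 5′ to 3′ on the gene's own strand, and the capitals mark the core on either strand.
Slc7a11, chr3:50443589-50443743, minus strand: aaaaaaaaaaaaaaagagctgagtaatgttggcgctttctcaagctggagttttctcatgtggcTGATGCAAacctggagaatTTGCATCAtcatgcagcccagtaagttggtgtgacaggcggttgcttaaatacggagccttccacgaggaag
Slc1a4, chr11:20332689-20332843, minus strand: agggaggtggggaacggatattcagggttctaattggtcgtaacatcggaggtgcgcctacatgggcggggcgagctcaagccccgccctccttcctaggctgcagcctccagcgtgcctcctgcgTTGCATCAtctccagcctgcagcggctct
Trib3, chr2:152344036-152344190, minus strand: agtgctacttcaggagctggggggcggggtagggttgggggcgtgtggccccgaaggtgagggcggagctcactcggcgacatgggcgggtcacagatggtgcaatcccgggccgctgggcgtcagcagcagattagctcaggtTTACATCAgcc
Asns, chr6:7693185-7693339, minus strand: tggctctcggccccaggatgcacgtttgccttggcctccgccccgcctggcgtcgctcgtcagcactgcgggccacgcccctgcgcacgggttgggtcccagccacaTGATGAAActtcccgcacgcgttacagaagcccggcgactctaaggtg
Nupr1, chr7:126625446-126625600, minus strand: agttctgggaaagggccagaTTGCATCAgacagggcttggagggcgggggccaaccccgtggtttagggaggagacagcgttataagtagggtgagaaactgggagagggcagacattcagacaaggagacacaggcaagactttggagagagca
The Slc7a11 window held the core at 2 places, and the other windows with a match held it once. The bases that Slc7a11 carries between 66 and 40 before its RefSeq start hold both copies, on opposite strands, while the copy of Slc1a4 spans the start and that of Trib3 lies 14 to 21 bases after it.

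All 10 regulators were positive in KCC-07 against control cells, with a median log2 fold change of 0.67, but none passed the threshold without the block. Atf4 itself had 397, 387 and 386 CPM in the KCC-07 libraries, against 377, 374 and 203 CPM in the control libraries. The KCC-07 libraries were all above the control libraries, but replicates 1 and 2 of the control lay just below them and replicate 3 was far lower. For Atf4 the log2 fold change was 0.29 ± 0.18 (SE; adjusted p = 0.33).

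Atf3, an ATF family factor that ATF4 induces, had 151, 132 and 89.1 CPM in the KCC-07 libraries, against 110.1, 86.2 and 22.3 CPM in the control libraries. The groups overlapped, since the lowest KCC-07 value lay between 2 control values, while each KCC-07 library was above the control library of its own number. For Atf3 the log2 fold change was 0.77 ± 0.41 (adjusted p = 0.26), and 1.00 with the block (adjusted p = 0.0268). Ddit3, which encodes CHOP, a factor that promotes cell death under prolonged stress, had 41.9, 38.4 and 17.5 CPM in the KCC-07 libraries, against 38.1, 50.4 and 5.39 CPM in the control libraries. The groups overlapped widely and replicate 3 was the lowest in both. For Ddit3 the log2 fold change was 0.06 ± 0.60 (adjusted p = 0.96), and -0.44 without control replicate 3. Ddit3 shares exon bases with Mars on the other strand and with a further annotated gene of the same name on its own strand. Its reads are therefore uncertain.

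Trib3, a pseudokinase that binds ATF4, had 160.1, 175 and 199 CPM in the KCC-07 libraries, against 116, 144 and 66.3 CPM in the control libraries. The groups did not overlap. For Trib3 the log2 fold change was 0.71 ± 0.21 (adjusted p = 0.0665), and 0.77 with the block (adjusted p = 0.0361). Ppp1r15a, which encodes GADD34, the subunit that directs a phosphatase to eIF2, had 77.9, 91.1 and 82.2 CPM in the KCC-07 libraries, against 64.5, 54.6 and 42.3 CPM in the control libraries. These groups did not overlap either. For Ppp1r15a the log2 fold change was 0.64 ± 0.22 (adjusted p = 0.10), and 0.66 with the block (adjusted p = 0.0087); it shares exon bases with Tulp2 on the other strand.

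Chac1, a glutathione-degrading enzyme that ATF4 and CHOP induce, had 55.7, 57.8 and 54.9 CPM in the KCC-07 libraries, against 39.4, 51.6 and 3.88 CPM in the control libraries. All KCC-07 libraries were above all control libraries, and control replicate 3 was far below the other 2 control libraries. For Chac1 the log2 fold change was 0.83 ± 0.58 (adjusted p = 0.40). The remaining regulators were Nupr1 (log2 fold change 0.80 ± 0.37, adjusted p = 0.20), a small stress-induced chromatin protein, Atf5 (0.71 ± 0.30, adjusted p = 0.16), a related factor under similar translational control, Cebpb (0.35 ± 0.15, adjusted p = 0.18) and Cebpg (0.33 ± 0.13, adjusted p = 0.14), the C/EBP partners. Atf5, Cebpb and Cebpg share exon bases with genes on the opposite strand. None of these 4 passed with the block.

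Among the 6 outputs, Ddit4, Stc2 and Gdf15 rose with KCC-07, and the median log2 fold change was 0.77. In GRCm38.p6 they lie on the minus strand of chromosome 10 (59949669 to 59951834), chromosome 11 (31357307 to 31370074) and chromosome 8 (70629393 to 70632456), in that order. Ddit4, which encodes REDD1, an inhibitor of mTORC1, had 481, 482 and 452 CPM in the KCC-07 libraries, against 219, 261 and 256 CPM in the control libraries. Every KCC-07 library was far above every control library. For Ddit4 the log2 fold change was 0.94 ± 0.13 (adjusted p = 0.0039, and 0.000807 with the block). Stc2, a secreted glycoprotein induced by ER stress, had 31.1, 22.4 and 61.4 CPM in the KCC-07 libraries, against 15.34, 15.02 and 14.99 CPM in the control libraries. The control libraries were nearly equal and the KCC-07 libraries were scattered above them, replicate 3 the highest. For Stc2 the log2 fold change was 1.34 ± 0.27 (adjusted p = 0.0181), 0.83 without KCC-07 replicate 3 (adjusted p = 0.0054), and it missed the threshold without control replicate 1 or 2 (adjusted p = 0.0601 and 0.0607).

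Gdf15, a secreted cytokine that reports cell stress, had 2.59, 1.14 and 3.38 CPM in the KCC-07 libraries, against 0.908, 0.400 and 0.754 CPM in the control libraries. The groups did not overlap, but the level was low, with 12 to 31 counts in a control library. For Gdf15 the log2 fold change was 1.77 ± 0.45 (adjusted p = 0.0424, and 0.0088 with the block), and it missed the threshold without KCC-07 replicate 1 or 3, or control replicate 1 or 2, with adjusted p of 0.0726 to 0.129. Sesn2, which encodes a leucine sensor that restrains mTORC1, had 50.3, 47.7 and 44.3 CPM in the KCC-07 libraries, against 35.7, 42.3 and 16.9 CPM in the control libraries. The groups did not overlap, though the closest libraries were near each other. For Sesn2 the log2 fold change was 0.58 ± 0.24 (adjusted p = 0.16), and 0.67 with the block (adjusted p = 0.0403). Eif4ebp1, which encodes the translation inhibitor 4E-BP1 (0.59 ± 0.29, adjusted p = 0.22), and Vldlr, a lipoprotein receptor (0.51 ± 0.31, adjusted p = 0.34), did not pass. Vldlr had 45.9, 43.1 and 116 CPM in the KCC-07 libraries, against 39.6, 44.2 and 60.8 CPM in the control libraries. Its log2 fold change was -0.11 without KCC-07 replicate 3.

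**Figure D2:**
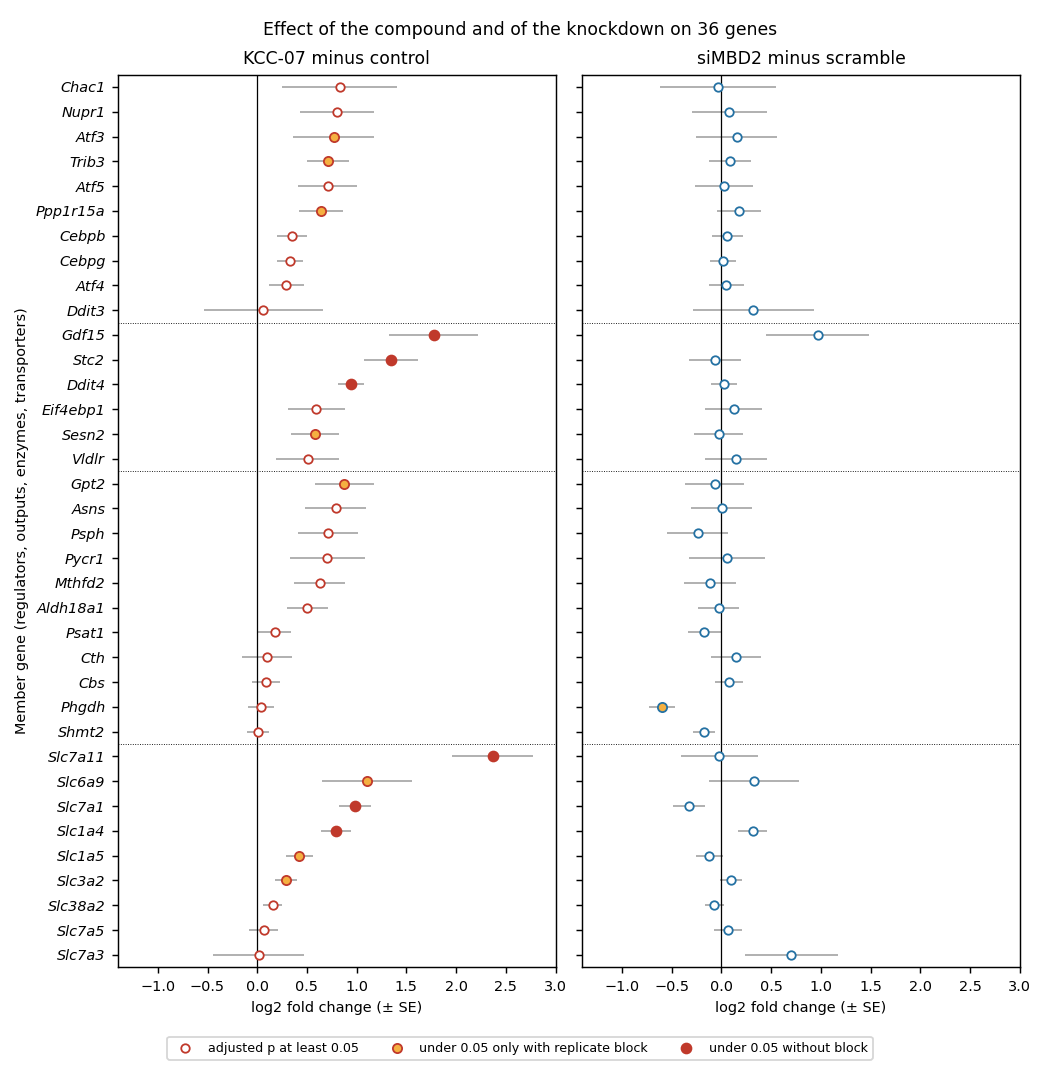
Points are fitted log2 fold changes of the 36 genes with their standard errors, KCC-07 minus control on the left and siMBD2 minus scramble on the right, ordered within each role. Points filled in the colour of their panel (red left, blue right) passed an adjusted p of 0.05 without the block. Orange points passed with the block and not without it. On the left 6 points are filled red, and on the right none is filled blue.

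In the fits of all 12 libraries none of the 11 enzymes rose without the block and Gpt2 rose with it, although all 11 were positive and their median log2 fold change was 0.50. Asns, which makes asparagine and is a classical ATF4 target, had 172, 163 and 326 CPM in the KCC-07 libraries, against 146, 151 and 85.7 CPM in the control libraries. The groups did not overlap, and replicate 3 was the highest KCC-07 library and the lowest control library. For Asns the log2 fold change was 0.79 ± 0.31 (adjusted p = 0.14, and 0.11 with the block). Gpt2, the mitochondrial alanine aminotransferase, had 54.7, 58.0 and 118 CPM in the KCC-07 libraries, against 42.1, 44.9 and 38.5 CPM in the control libraries. Replicate 3 was again the highest KCC-07 library and the lowest control library. For Gpt2 the log2 fold change was 0.87 ± 0.29 (adjusted p = 0.097), and 0.78 with the block (adjusted p = 0.0367). Gpt2 also passed by DESeq2 (adjusted p = 0.0264) and, with Cbs, in the fit without replicate 3 of any group (adjusted p = 0.0083 and 0.0274).

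In serine synthesis, Psph, the last step, had a log2 fold change of 0.71 ± 0.30 (adjusted p = 0.17), while Psat1 and Phgdh, the steps before it, had 0.17 ± 0.17 and 0.04 ± 0.13. Mthfd2, a mitochondrial folate enzyme, had 0.63 ± 0.26 (adjusted p = 0.16), and Shmt2, which makes glycine from serine in mitochondria, had 0.01 ± 0.11. Psph shares exon bases with Cct6a on the other strand, and Shmt2 with Ndufa4l2, so their reads are uncertain. Pycr1 (0.71 ± 0.38) and Aldh18a1 (0.50 ± 0.21), which act in proline synthesis, did not pass, and without KCC-07 replicate 3 they had -0.04 and 0.14. Cth and Cbs, the transsulfuration enzymes that make cysteine, each had 0.09, with standard errors of 0.25 and 0.14. Without replicate 3 the median of the 11 enzymes was 0.07, against 0.31 for the regulators, 0.58 for the outputs and 0.42 for the transporters.

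Of the 9 transporters 3 rose, with a median log2 fold change of 0.42 over the 9. Slc7a11, the cystine-glutamate exchanger xCT, which supplies cysteine for glutathione, had 42.8, 51.3 and 51.1 CPM in the KCC-07 libraries, against 10.1, 15.1 and 3.01 CPM in the control libraries. The KCC-07 libraries were close together and far above the control libraries, which were spread widely. For Slc7a11 the log2 fold change was 2.37 ± 0.41 (adjusted p = 0.0098, and 0.0043 with the block), the largest of the 36. It averaged 48.4 ± 4.88 CPM in KCC-07 cells and 9.41 ± 6.07 CPM in control cells, and in the siRNA arm it averaged 20.9 ± 3.87 CPM in siMBD2 cells and 21.2 ± 3.36 CPM in scramble cells (SD, n = 3 each).

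Slc7a1, the cationic amino acid transporter that imports arginine and lysine, had 176, 168 and 242 CPM in the KCC-07 libraries, against 88.5, 121 and 86.8 CPM in the control libraries. The groups did not overlap. For Slc7a1 the log2 fold change was 0.99 ± 0.16 (adjusted p = 0.0087, and 0.0061 with the block). Slc1a4, which exchanges alanine, serine and cysteine, had 79.5, 61.2 and 84.3 CPM in the KCC-07 libraries, against 41.7, 35.6 and 52.7 CPM in the control libraries. All KCC-07 libraries were above all control libraries. Slc7a11 lies on the minus strand of chromosome 3 (49892526 to 50443614), Slc7a1 on that of chromosome 5 (148327410 to 148399904) and Slc1a4 on that of chromosome 11 (20302180 to 20332713). For Slc1a4 the log2 fold change was 0.79 ± 0.15 (adjusted p = 0.0127, and 0.00104 with the block).

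In the fits of all 12 libraries Slc6a9, Slc1a5 and Slc3a2 passed with the block and not without it. They also passed without replicate 3 of any group (adjusted p = 0.0394, 0.0133 and 0.0155), but not with the block in the 6 libraries alone (0.124, 0.1001 and 0.171). Slc6a9, a glycine transporter, had 16.5, 14.6 and 44.8 CPM in the KCC-07 libraries, against 10.3, 12.8 and 12.2 CPM in the control libraries. The groups did not overlap, and KCC-07 replicate 3 was far above the other libraries. For Slc6a9 the log2 fold change was 1.11 ± 0.45 (adjusted p = 0.16), and 0.93 with the block (adjusted p = 0.0409); the gene shares exon bases with others on the opposite strand. Slc1a5, the glutamine transporter ASCT2, had 51.5, 48.9 and 70.3 CPM in the KCC-07 libraries, against 39.0, 41.7 and 46.6 CPM in the control libraries. These did not overlap. For Slc1a5 the log2 fold change was 0.42 ± 0.13 (adjusted p = 0.085), and 0.41 with the block (adjusted p = 0.0144). Slc3a2, the heavy chain that carries SLC7A11 and SLC7A5 to the membrane, had 364, 329 and 287 CPM in the KCC-07 libraries, against 284, 290.1 and 228 CPM in the control libraries. The lowest KCC-07 library lay under the highest control library. For Slc3a2 the log2 fold change was 0.29 ± 0.11 (adjusted p = 0.14), and 0.29 with the block (adjusted p = 0.0299). Slc7a5, the leucine transporter LAT1, had 0.06 ± 0.14, Slc38a2, the glutamine transporter SNAT2, had 0.16 ± 0.09, and Slc7a3 stayed at 0.706 CPM or less in the KCC-07 libraries and 0.957 CPM or less in the control libraries.

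**Figure D3:**
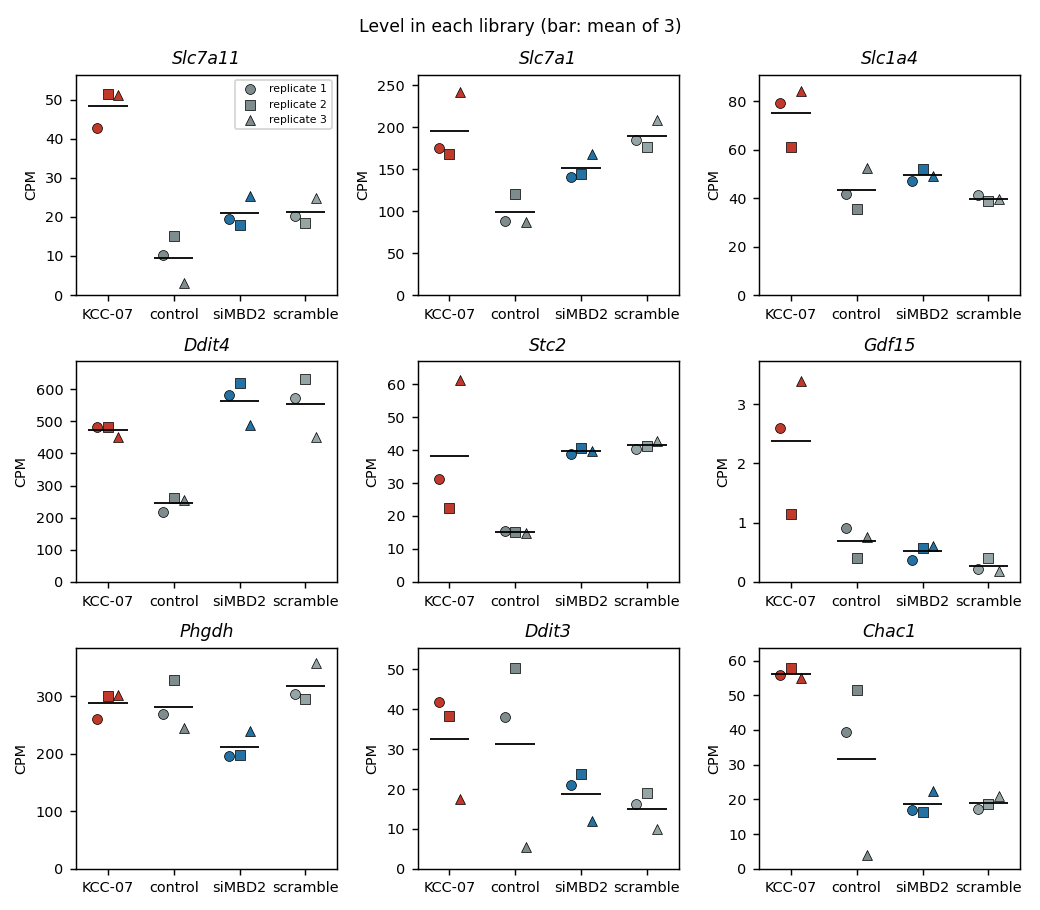
Each panel gives one gene in CPM, with 1 point per library (circle, square and triangle for replicates 1, 2 and 3) and a bar at the mean of 3. KCC-07 libraries lie above all control libraries for Slc7a11, Slc7a1, Slc1a4, Ddit4, Stc2, Gdf15 and Chac1, and control replicate 3 is far below the other control libraries for Slc7a11, Ddit3 and Chac1.

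Replicate pairs differed in size of the difference. Within replicate pairs, the median log2 difference of the 36 genes between KCC-07 and control was 0.37 in pair 1, 0.16 in pair 2 and 1.27 in pair 3, where the same median over all genes was 0.04, 0.01 and 0.00. In pair 3 it was 1.47 for the regulators, 1.60 for the outputs, 1.19 for the enzymes and 0.59 for the transporters. Slc7a11 was higher by 2.07, 1.76 and 4.05 in pairs 1, 2 and 3. Chac1 differed by 0.50, 0.16 and 3.80, and Asns by 0.24, 0.12 and 1.92. Control replicate 3 was the lowest of its group for 24 of the 36 genes, where 41.8% of all genes were lowest there. KCC-07 replicate 3 was the highest of its group for 24, where 42.5% of all genes were. In the siRNA arm replicate 3 was also the highest for 25 genes in siMBD2 cells, where 41% of all genes were. It was the highest for 25 in scramble cells, where 40.2% of all genes were. The part of replicate 3 in these differences was not tested beyond the fits without it. In the library names replicate 3 is number 4 in the compound arm and number 3 in the siRNA arm. Whether the arms share a batch is not known.

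**Figure D4:**
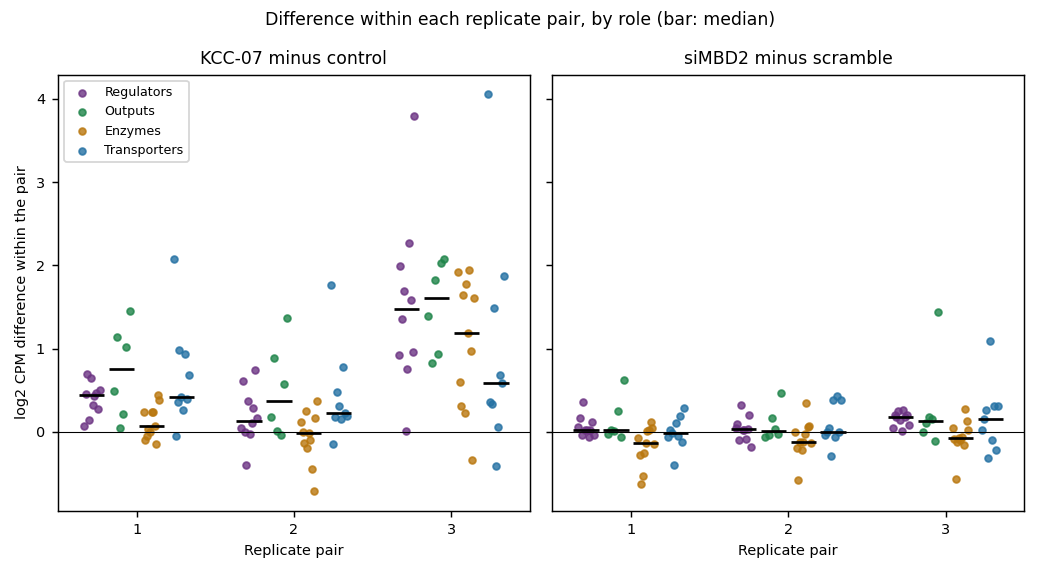
Points are the 36 genes in each replicate pair, as the log2 CPM difference KCC-07 minus control on the left and siMBD2 minus scramble on the right, coloured by role, with bars at medians. Pair 3 of the compound arm has a median of 1.27 over the 36 genes, against 0.37 and 0.16 in pairs 1 and 2 and 0.10 or less in the siRNA arm.

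Knockdown of Mbd2 left the 36 genes without a call in the fit of all 12 libraries without the block. None passed there in siMBD2 against scramble cells, where 0% of all genes were called higher and 0.0402% lower. DESeq2 called 1 of the 36 and 85 of all genes, and 1 of the 36 and 786 of all genes had an unadjusted p below 0.05. The fit of 12 libraries shares 1 estimate of the spread of a gene over all 4 groups. In the 6 siRNA-arm libraries alone 0 of the 36 and 171 of all genes passed. With the block in those 6 libraries 11 of the 36 passed, 6 of them higher, where 2753 of all genes passed. The median log2 fold change of the 36 genes was 0.04, and 22 were positive. Over all genes the median was 0.004, and 50.9% were positive. Without siMBD2 replicate 3 the median of the 36 was -0.06, with 16 positive. Without replicate 3 of any group it was 0.01, with 18 positive. The siMBD2 libraries were all above the scramble libraries for Atf3 and Slc1a4 and all below them for Phgdh and Slc7a1; over all genes, 10.3% did not overlap on the higher side and 11.6% on the lower side. Phgdh, the first enzyme of serine synthesis, had 196, 197 and 241 CPM in the siMBD2 libraries, against 303, 296 and 358 CPM in the scramble libraries. For Phgdh the log2 fold change was -0.59 ± 0.13 (adjusted p = 0.21), and -0.60 with the block (adjusted p = 0.0290), a call that 0.328% of all genes received as lower and 0.422% as higher. In the 6 siRNA-arm libraries alone the adjusted p of Phgdh was 0.0513, and 1.28e-07 with the block. Phgdh has several near-identical copies in the annotation, so its counts are uncertain.

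The 3 transporters and 3 outputs that rose in the compound arm had these levels in the siRNA arm. Slc7a11 had 19.5, 17.9 and 25.3 CPM in the siMBD2 libraries, against 20.3, 18.4 and 24.9 CPM in the scramble libraries. Slc7a1 had 141, 144 and 168 CPM in the siMBD2 libraries, against 185, 176 and 209 CPM in the scramble libraries. Slc1a4 had 47.3, 52.0 and 49.3 CPM in the siMBD2 libraries, against 41.3, 38.7 and 39.6 CPM in the scramble libraries. Slc7a1 thus lay lower and Slc1a4 higher in every siMBD2 library, and neither passed in the fit of all 12 libraries (adjusted p = 0.98 and 0.95). In the 6 siRNA-arm libraries alone neither passed without the block (adjusted p = 0.149 and 0.0656). Both passed there with the block (adjusted p = 4.99e-05 and 0.00181), where 2753 of all genes did. Ddit4 had 583, 619 and 489 CPM in the siMBD2 libraries, against 573, 633 and 453 CPM in the scramble libraries. Stc2 had 38.7, 40.6 and 39.7 CPM in the siMBD2 libraries, against 40.5, 41.2 and 42.8 CPM in the scramble libraries. Gdf15 had 0.376, 0.571 and 0.606 CPM in the siMBD2 libraries, against 0.220, 0.396 and 0.182 CPM in the scramble libraries. These 3 overlapped between siMBD2 and scramble, and the Gdf15 level was near the lowest of the 36.

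Levels of the other genes given by library followed in the siRNA arm. Atf4 had 406, 418 and 438 CPM in the siMBD2 libraries, against 388, 404 and 426 CPM in the scramble libraries. Atf3 had 47.5, 49.6 and 49.4 CPM in the siMBD2 libraries, against 42.2, 46.5 and 42.8 CPM in the scramble libraries. Ddit3 had 20.9, 23.7 and 11.9 CPM in the siMBD2 libraries, against 16.3, 18.9 and 10.02 CPM in the scramble libraries. For Atf3 alone of these the groups did not overlap. Trib3 had 84.3, 87.4 and 96.9 CPM in the siMBD2 libraries, against 82.7, 85.0 and 85.4 CPM in the scramble libraries. Chac1 had 16.8, 16.5 and 22.4 CPM in the siMBD2 libraries, against 17.3, 18.8 and 21.1 CPM in the scramble libraries. Ppp1r15a had 41.4, 44.4 and 27.5 CPM in the siMBD2 libraries, against 38.0, 38.5 and 23.8 CPM in the scramble libraries. Each of these 3 overlapped, and replicate 3 was the lowest library of both groups for Ppp1r15a. Asns had 102, 108 and 166 CPM in the siMBD2 libraries, against 108, 108 and 161 CPM in the scramble libraries, with replicate 3 the highest in both. Gpt2 had 30.1, 32.4 and 51.4 CPM in the siMBD2 libraries, against 33.2, 35.5 and 50.8 CPM in the scramble libraries. Slc6a9 had 10.5, 11.6 and 23.1 CPM in the siMBD2 libraries, against 8.55, 8.87 and 18.7 CPM in the scramble libraries. Replicate 3 was again the highest library of each group for both genes. Sesn2 had 26.3, 26.4 and 29.1 CPM in the siMBD2 libraries, against 26.9, 27.4 and 29.1 CPM in the scramble libraries. Slc1a5 had 54.1, 53.8 and 56.0 CPM in the siMBD2 libraries, against 59.0, 54.1 and 65.3 CPM in the scramble libraries. Slc3a2 had 275, 290.2 and 299 CPM in the siMBD2 libraries, against 277, 280.4 and 249.98 CPM in the scramble libraries. The groups overlapped for all 3.

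The effect of KCC-07 differed from that of the knockdown for 1 of the 36 genes, where 0.482% of all genes differed in the same direction. Slc7a1 had a log2 fold change of 0.99 with KCC-07 and -0.33 ± 0.16 with siMBD2, a difference of 1.32 ± 0.23 (adjusted p = 0.0324). This call was lost without control replicate 1 or without any 1 of the siMBD2 or scramble libraries, with adjusted p of 0.0647 to 0.116 and a difference of 1.24 to 1.40. With the block, Slc7a1, Slc7a11, Slc1a4, Slc1a5, Ddit4, Stc2 and Phgdh passed, 7 genes, where 4.65% of all genes did. Without the block the difference for Slc7a11 was 2.39 ± 0.56 (adjusted p = 0.080) and for Ddit4 0.92 ± 0.18 (adjusted p = 0.0506).

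Several of the genes also differed between the siRNA control and untransfected cells. In scramble against control cells, a comparison that shares the control libraries with KCC-07 against control, 6 of the 36 genes rose and 1 fell, where 4.71% and 4.08% of all genes did. Ddit4 had 573, 633 and 453 CPM in the scramble libraries, above all 3 control libraries, a log2 fold change of 1.17 ± 0.13 (adjusted p = 0.0016). Stc2 had 40.5, 41.2 and 42.8 CPM in the scramble libraries, with a log2 fold change of 1.46 ± 0.27 (adjusted p = 0.0101), and Slc7a1 had 0.95 ± 0.16 (adjusted p = 0.0077). Cebpb (0.57), Slc1a5 (0.49) and Slc38a2 (0.43) also rose. Cebpb lost the call without control replicate 1 or any 1 scramble library (adjusted p of 0.0565 to 0.148), and Slc1a5 (0.0854 to 0.145) and Slc38a2 (0.0504 to 0.0737) lost it without any 1 library of the comparison but control replicate 3. Cbs fell by 0.97 on the log2 scale (adjusted p = 0.0045), with 54.0, 52.8 and 43.4 CPM in the scramble libraries and 89.7, 89.4 and 116 CPM in the control libraries. Slc7a11, at 1.18 ± 0.40 (adjusted p = 0.087), did not pass.

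Other genes of the pathway were read from lists of textbook members. Of 16 genes tested for the eIF2 kinases, eIF2, eIF2B, the eIF2 phosphatase and related factors, none passed in KCC-07 against control cells. Of these, 12 were below 0, and the median log2 fold change was -0.17. The smallest adjusted p was for Ppp1r15b, the constitutive partner of the phosphatase (0.26, adjusted p = 0.0883). Next came Eif2b5, a subunit of the exchange factor (-0.23, adjusted p = 0.127), and Eif2ak3, which encodes the kinase PERK (0.41, adjusted p = 0.139). Of 14 other amino acid transporters 1 rose, Slc38a1, a glutamine transporter (0.96 ± 0.21, adjusted p = 0.0231). Of 18 folate, serine and related enzymes none passed, with Aldh1l2, a mitochondrial folate enzyme, at 1.23 ± 0.43 (adjusted p = 0.11). Of 19 further ATF4 targets and nutrient sensors 4 rose and none fell, where 3.58% of all genes rose and 2.08% fell: Ndrg1 (0.80, adjusted p = 0.0307), Tnfrsf10b, a death receptor (0.56, adjusted p = 0.0386), Sqstm1, the autophagy receptor p62 (0.87, adjusted p = 0.0405), and Aars, alanyl-tRNA synthetase (0.47, adjusted p = 0.049983). Of 14 chaperone and degradation genes of the other arms of the unfolded protein response none passed, with Hyou1, an ER chaperone, the nearest (0.52, adjusted p = 0.0507). With the block, 2 genes rose and 1 fell in the eIF2 list, 2 rose among the other transporters, 2 rose and 4 fell among the folate and serine enzymes, 7 rose and 2 fell among the further targets, and 3 rose among the chaperone and degradation genes, where 12.8% of all genes rose and 9% fell.

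Per kilobase of annotated exon, the highest of the 36 in KCC-07 cells were Cebpb at 274, Ddit4 at 269 and Atf4 at 165 CPM per kilobase, and in control cells the same 3 at 215, 139.7 and 135. Slc7a11 stood at 3.48 CPM per kilobase in KCC-07 cells, against 0.676 in control cells, 33rd and 34th of the 36. Gdf15 and Slc7a3 were the lowest 2 in KCC-07 and in control cells.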

How the data were processed

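Polyadenylated RNA was sequenced, and the authors deposited whole-number read counts per gene with no normalization, per the labels and the values. The submitters' processing notes list DRAGEN, DESeq2 1.44.0 and mm10 (GRCm38.p6) with no role; no source used here gives the annotation or strand setting. Counts were fitted in R 4.3.3 with edgeR 4.0.16 (filterByExpr, minimum count 10 and total 15; TMM; quasi-likelihood F test; 1 mean per group over 12 libraries; 8 residual degrees of freedom), with Benjamini-Hochberg adjustment over all genes tested and a threshold of 0.05. Standard errors are the absolute log2 fold change over the root of F, and CPM are TMM-scaled. With 3 libraries a side, exact permutation cannot reach a p under 0.1, so no exact permutation test was run. The labels' batch tag pairs libraries within an arm; same-numbered libraries had correlated deviations (0.27, 0.28 and 0.48 in the compound arm, 0.09, 0.15 and 0.42 in the siRNA arm), but those between replicates 1 and 2 were of similar size (0.17 and 0.30 in the compound arm, 0.18 and 0.21 in the siRNA arm), so the values set replicate 3 apart and the pairing of 1 and 2 rests on the tag; the block fit left 4 residual degrees of freedom. Replicates differed by more than sampling noise (lowest chi-square per degree of freedom 2.80). Alternatives were DESeq2 1.42.0, its size factors, other filters, the block, the 6 libraries alone and fits without libraries; the code was tested on simulated data. Values of each library are given for genes past the threshold in either arm, with or without the block. They are also given for Atf4, Ddit3, Trib3, Chac1, Asns and Slc7a11. Vldlr and, in scramble against control, Cbs are given by library outside that rule. Other lists contribute up to 3 genes with the smallest adjusted p, plus Aars, chosen after its values were seen. The 36 genes and the lists were chosen with earlier results of these data known. The 36 symbols had 37 rows among the counts, 1 of them with no count in any library. A symbol with several rows took the row with the larger total count. Gene positions came from GENCODE for GRCm38.p6.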

Additional observations from a re-analysis of the deposited data

Results flagged for a closer look

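Slc7a1 was the 1 gene of the 36 whose KCC-07 effect differed from its siMBD2 effect in the test of that difference, by 1.32 on the log2 scale (adjusted p = 0.0324). Slc7a1 was higher in 3 of 3 replicate pairs of the compound arm, by 0.99, 0.48 and 1.48, and lower in 3 of 3 pairs of the siRNA arm, by differences of -0.39, -0.29 and -0.31. These pairs are the libraries of that test. Slc7a1 averaged 195 CPM in KCC-07, 98.7 CPM in control, 151 CPM in siMBD2 and 190 CPM in scramble cells. The call was lost without control replicate 1 or without any 1 siMBD2 or scramble library. No cause was tested.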

How the results depend on the processing

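For KCC-07 against control, 6 of the 36 genes passed the threshold, where 844 of all genes did. The number was 14 with the replicate block, 10 by DESeq2 and 16 when batch 3, meaning replicate 3 of every group, was left out. Of all genes 3251, 1874 and 3833 passed, in that order. In the 6 libraries alone it was 0, where 1 gene of all passed. With the block in those 6 libraries it was 5, where 394 of all passed. Leaving out 1 library gave 4 to 8, where 391 to 2134 of all passed. Ddit4, Slc7a11, Slc7a1 and Slc1a4 passed without each of the 6 libraries in turn. For siMBD2 against scramble 0 of the 36 and 6 of all genes passed. The count became 1 with the replicate block (112 of all), 1 with DESeq2 (85) and 1 without batch 3 (162). It was 0 in the 6 libraries alone (171 of all), and 11 there with the block, 6 of them higher, where 2753 of all genes passed. For the difference of the effects, 1 of the 36 and 98 of all genes passed. The count became 4 with no filter on low counts (176 of all), 2 with the filter at 1 CPM (105) and 7 with the block (1030). It became 5 with DESeq2 (617) and 7 without batch 3 (1589). Leaving out 1 library gave 0 to 3, where 11 to 351 of all passed. For scramble against control, where 1313 of all genes passed, the count of 7 became 23 without batch 3, where 6172 of all did, and leaving out 1 library gave 4 to 15, where 316 to 3125 of all did. It was 8 with a block shared across the arms, where 2062 of all genes passed. The same-numbered scramble and control libraries correlated at 0.07, 0.02 and 0.13 and are not known to share a batch. The log2 fold change of Ddit3 in KCC-07 against control, 0.06, was -0.13 without batch 3, and -0.44 to 0.59 when 1 library was left out. The median of the 36 genes in KCC-07 against control was 0.28 to 0.72 over all alternatives. The cause of these shifts was not tested. Gdf15 and Slc7a3, with few counts, are limited by depth.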
